A study of Bos taurus and Bos indicus with 12 samples.

Results

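The 8 genes of type 2 immunity described here were followed in cattle skin with and without attached larvae of the cattle tick Rhipicephalus microplus. They were taken by name from the array's gene annotation, and all 8 genes were found, with 11 of the 24016 probe sets tested. The cytokines IL4, IL13 and IL5, the chemokine CCL26, the Fc receptor chain FCER1G and the enzyme HDC were covered by 1 probe set each, except IL13, which had 2, as had the receptor IL4R and the Fc receptor chain FCER1A.

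Full-thickness punch biopsies of whole skin came from 12 female cattle, each hybridised to 1 Affymetrix bovine array. Infested animals were biopsied where young larvae were attached, after repeated heavy infestation, and naive animals had never met this tick. The groups were infested Holstein-Friesian animals of 6 months, infested Brahman animals of 6 months, naive Holstein-Friesian animals of 12 months and naive Brahman animals of 18 months, with 3 animals each. Holstein-Friesian cattle are taurine and kept for milk, and Brahman, a zebu breed, is known to resist this tick. Age and infestation cannot be told apart, since every infested animal was younger than every naive one. Breed and age cannot be told apart among naive animals, and the breed difference in the infestation effect carries the same limit.

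In type 2 immunity, helper T cells and innate lymphoid cells release IL4, IL13 and IL5 in answer to parasites and allergens. IL4 and IL13 act on skin cells and macrophages through receptors that contain IL4R, and CCL26 (eotaxin-3) is among the genes they are known to induce in human cells. CCL26 draws eosinophils through the receptor CCR3, and IL5 promotes their growth and survival. Mast cells and basophils carry IgE on the receptor of which FCER1A is the IgE-binding chain and FCER1G the signalling chain, and they release histamine, which HDC makes from histidine.

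All levels are RMA signals in log2 units, so a difference of 1 is a change of 2-fold, and n = 3 arrays per group unless stated. Differences are given ± the standard error of the model, and "passed" means a limma p under 0.05 after Benjamini-Hochberg adjustment over all probe sets of a comparison. The biopsies held skin epithelium throughout: KRT5 lay between 13.75 and 14.11 and KRT14 between 14.22 and 14.67 over the 12 arrays. The RNA of the infested arrays was of uneven integrity. An index of 5' minus 3' signal was -2.73, -0.75 and -1.23 on the infested Holstein-Friesian arrays, against -1.39, -0.82 and -1.17 on the naive ones. It was -4.91, -2.56 and -2.07 on the infested Brahman arrays, against -1.04, -0.85 and -0.92 on the naive ones. The Brahman groups did not overlap in the index, so integrity and infestation cannot be told apart in this breed. In bulk skin, fewer cells of a type and less RNA per cell cannot be told apart.

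Of the 8 genes, CCL26 carried by far the widest range of signal, 4.56 log2 units between its lowest and highest array. The median range over all probe sets was 1.06, and 7 of the 11 probe sets of these genes exceeded it. Only CCL26, both IL4R probe sets and FCER1G had a mean signal above 6.07, the 40% quantile of all probe sets. The other 7 probe sets lay below it. IL5 had a mean at or above that of 7.612% of probe sets, HDC of 6.762% and IL4 of 13.69%, so that differences in these genes were read near the bottom of the signal range.

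**Figure D1:**
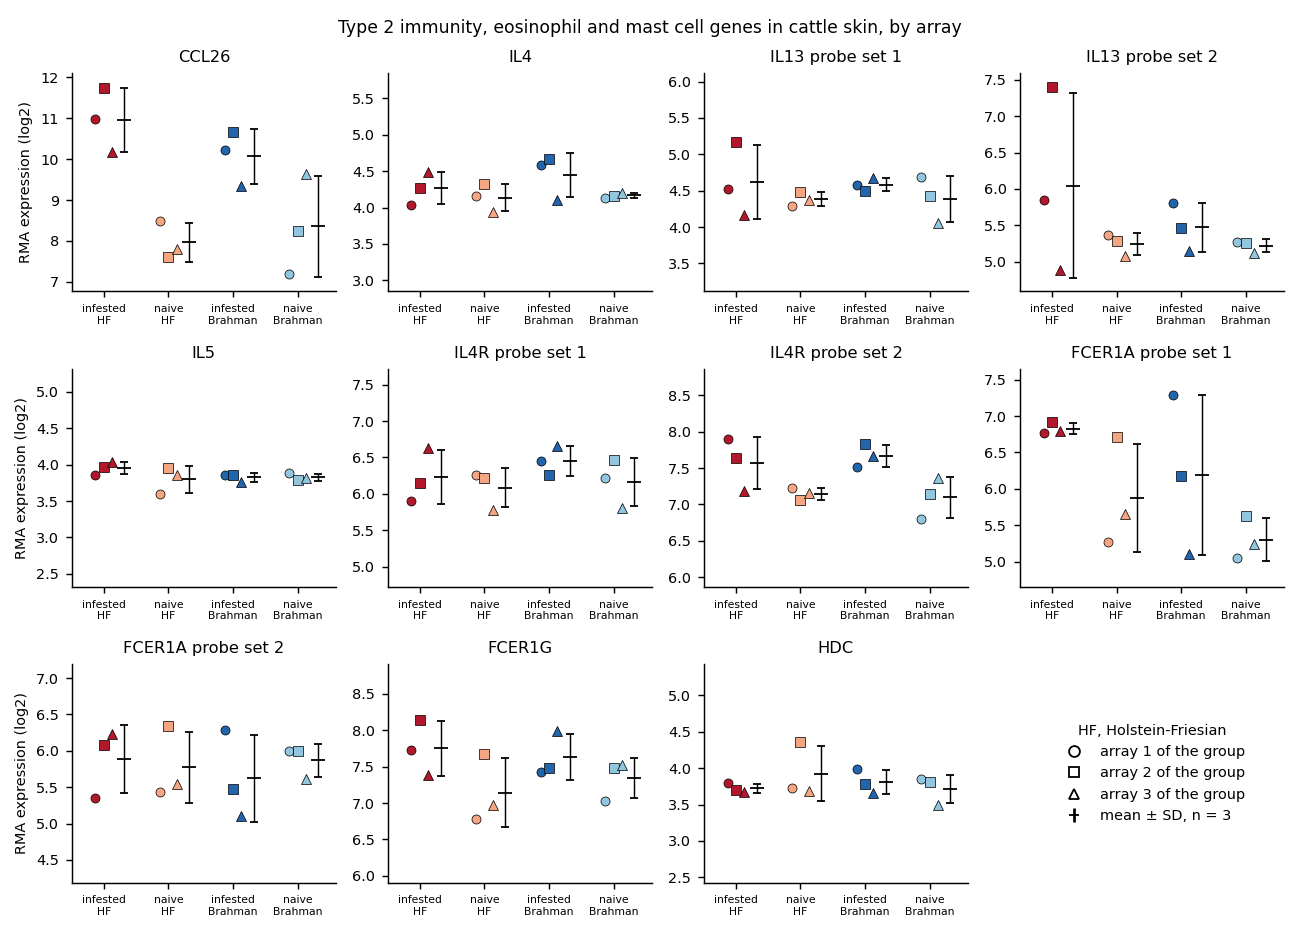
RMA expression (log2, y axis) of each of the 11 probe sets on every array, in infested and naive Holstein-Friesian (HF) and infested and naive Brahman skin, with the mean ± SD of 3 arrays beside the points. CCL26 reaches 11.74 in infested Holstein-Friesian skin, against at most 8.50 in naive Holstein-Friesian skin, while IL5 stays between 3.60 and 4.03 on all 12 arrays; the panels have different y ranges.

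In Holstein-Friesian skin, CCL26 was the only one of the 11 probe sets that passed in the comparison of infested with naive animals, against a background of 5.02% of all probe sets. None of the 11 passed in Brahman skin, where 19.8% of all probe sets did. At an unadjusted p under 0.05 there were 2 in each breed: CCL26 and FCER1G in Holstein-Friesian skin, and CCL26 and the second IL4R probe set in Brahman skin. Over both breeds, 2 of the 11 passed (CCL26 and that IL4R probe set) where 27.9% of all probe sets did. The infested and naive arrays did not overlap for 2 of the 11 in Holstein-Friesian skin (30.3% of all probe sets), for 1 in Brahman skin (38.5%) and for 0 over both breeds (12.6%). The median difference of the 11 was 0.24 in Holstein-Friesian skin, 0.29 in Brahman skin and 0.22 over both breeds, beside -0.03, 0.04 and 0.00 for all probe sets. The contrast over both breeds averages the breed effects and was chosen after seeing the data.

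The 3 type 2 cytokines were at low signal in all groups and none of them passed. IL4, which drives helper T cells towards type 2 responses and B cells towards IgE, read 4.04, 4.28 and 4.49 on the infested Holstein-Friesian arrays, against 4.15, 4.32 and 3.94 on the naive ones. In Brahman skin it read 4.59, 4.66 and 4.11 in infested animals, against 4.14, 4.16 and 4.20 in naive animals. Infested Brahman arrays 1 and 2 were the highest of the 12, and array 3 lay below all naive Brahman arrays. The difference was 0.13 ± 0.18 in Holstein-Friesian skin (95% interval -0.26 to 0.52, limma adjusted p = 0.722) and 0.29 ± 0.18 in Brahman skin (-0.10 to 0.68, adjusted p = 0.277).

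IL5 was the flattest of the 8 genes, with 3.86, 3.97 and 4.03 in infested Holstein-Friesian skin against 3.60, 3.95 and 3.85 in naive skin. It read 3.86, 3.85 and 3.76 in infested Brahman skin, against 3.88, 3.79 and 3.82 in naive skin. The groups overlapped in both breeds. The interval of the difference was -0.12 to 0.43 in Holstein-Friesian skin (adjusted p = 0.506) and -0.28 to 0.27 in Brahman skin (adjusted p = 0.986), both within 1 log2 unit of 0.

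IL13, the type 2 cytokine that acts most on epithelium and its mucus and barrier genes, was high on a single array. Its second probe set read 5.85, 7.40 and 4.89 in infested Holstein-Friesian skin, against 5.37, 5.29 and 5.07 in naive skin. Array 2 was the highest of all 12 arrays and array 3 the lowest. In Brahman skin the same probe set read 5.81, 5.47 and 5.14 in infested animals, against 5.28, 5.26 and 5.12 in naive animals. The difference was 0.80 ± 0.47 in Holstein-Friesian skin (adjusted p = 0.356) and 0.25 ± 0.47 in Brahman skin (adjusted p = 0.738). Without infested array 2 the Holstein-Friesian difference was 0.13, and without infested array 3 it was 1.38. Over both breeds the difference was 0.53 ± 0.33 (adjusted p = 0.260), and it passed without infested Holstein-Friesian array 3 (0.82, adjusted p = 0.0397). The first IL13 probe set had its highest value, 5.17, on the same array and differed by 0.24 ± 0.24 in Holstein-Friesian skin. Over the 12 arrays the 2 probe sets correlated at r = 0.81, a description of arrays that share their groups.

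Other genes had the same array at their top. Those named here were picked for their likeness to IL13 or, after their values were seen, from the lists of type 2 genes. CCR3, the eotaxin receptor of eosinophils, read 5.53, 7.17 and 5.16 in infested Holstein-Friesian skin, against 5.02, 4.97 and 4.97 in naive skin. IL3, a growth factor of basophils and mast cells, read 3.73, 5.98 and 3.82 against 3.40, 3.46 and 3.46. ALOX15, the lipoxygenase of eosinophils and of macrophages exposed to IL4, read 5.55, 6.57 and 4.46 against 4.49, 3.96 and 4.15.

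IL1B, an inflammatory cytokine of myeloid cells that is no type 2 gene, read 5.44, 8.18 and 4.96 in infested Holstein-Friesian skin, against 5.14, 4.90 and 4.90 in naive skin. NR4A2, an early-response transcription factor, reached 11.86 on the same array, beside 7.96 and 7.00 on the other infested Holstein-Friesian arrays. CCL8, a chemokine that attracts monocytes and eosinophils, read 7.24, 11.18 and 9.50 in infested Holstein-Friesian skin, against 6.70, 6.53 and 6.49 in naive skin. Of these 6 genes none passed in either breed: the Holstein-Friesian differences were 0.96 for CCR3, 1.07 for IL3, 1.32 for ALOX15, 1.21 for IL1B and 2.73 for CCL8, with adjusted p of 0.193, 0.239, 0.141, 0.288 and 0.0553. Array 2 had the highest integrity index of the infested arrays, -0.75, and the part of RNA integrity in this pattern was not tested.

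**Figure D2:**
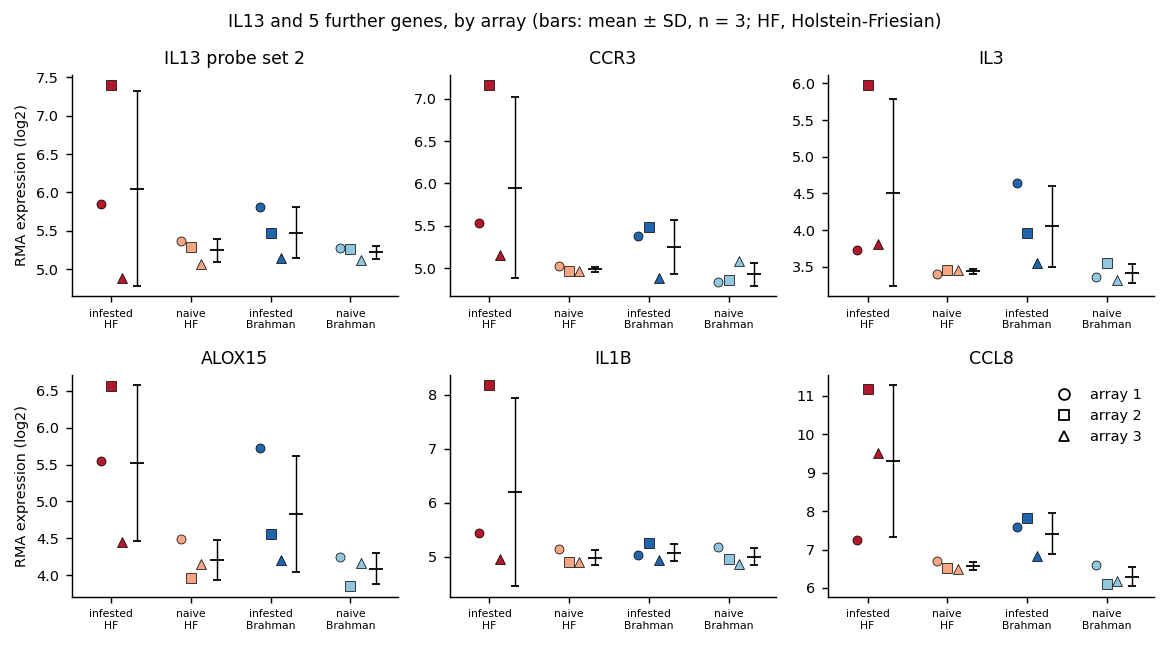
RMA expression (log2, y axis) of the second IL13 probe set, CCR3, IL3, ALOX15, IL1B and CCL8 on every array, with the mean ± SD of 3 arrays beside the points (HF, Holstein-Friesian). In each panel infested Holstein-Friesian array 2 (square) is the highest of the 12 arrays, for IL1B at 8.18 where the other 11 lie between 4.86 and 5.44.

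IL4R, the chain shared by the receptors of IL4 and IL13, was measured by 2 probe sets that did not move together (r = -0.04 over 12 arrays). The second read 7.90, 7.63 and 7.19 in infested Holstein-Friesian skin, against 7.22, 7.06 and 7.16 in naive skin. In Brahman skin it read 7.52, 7.82 and 7.66 in infested animals, against 6.80, 7.14 and 7.36 in naive animals. All infested Brahman arrays lay above all naive ones, while infested Holstein-Friesian array 3 lay within the naive range. The difference was 0.43 ± 0.20 in Holstein-Friesian skin (adjusted p = 0.239) and 0.57 ± 0.20, a 1.48-fold level, in Brahman skin (unadjusted p = 0.0148, adjusted p = 0.0644). The Brahman difference passed under 6 of 22 alternatives: median centring (0.66, adjusted p = 0.0391), cyclic loess (0.60, adjusted p = 0.0434), array weights (0.62, adjusted p = 0.0151), the 2 arrays of lowest index left out (0.65, adjusted p = 0.0310), and fits without infested Holstein-Friesian array 1 or 3 (adjusted p of 0.0420 and 0.0428). With the index as a covariate it was 0.53 (adjusted p = 0.310).

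Over both breeds this IL4R probe set was 1.41-fold higher in infested skin, at 7.62 ± 0.25 in infested and 7.12 ± 0.19 in naive animals (SD, n = 6 each). It passed with a limma adjusted p of 0.0224. The call was lost at a difference of 0.48 with the integrity index as a covariate (adjusted p = 0.113), at 0.48 without naive Holstein-Friesian array 2 (adjusted p = 0.0544) and at 0.42 without naive Brahman array 1 (adjusted p = 0.0511). The first IL4R probe set read 5.90, 6.15 and 6.63 in infested Holstein-Friesian skin against 6.25, 6.22 and 5.78 in naive skin, and 6.45, 6.25 and 6.66 in infested Brahman skin against 6.22, 6.47 and 5.81 in naive skin. Its groups overlapped in both breeds, and its difference over both breeds was 0.22 ± 0.16 (95% interval -0.14 to 0.58, adjusted p = 0.347).

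Counts of list genes that passed stand against 5.02% of all probe sets in Holstein-Friesian skin, 19.8% in Brahman skin and 27.9% over both breeds. Of 23 genes listed as receptors and signalling partners of these cytokines, 10 were measured. In Holstein-Friesian skin 0 rose and 0 fell (limma, adjusted p under 0.05), and in Brahman skin STAT5B, a signal transducer of IL5-type receptors, fell by 0.85 on the log2 scale (adjusted p = 0.0175). That call was lost without naive Brahman array 3, at -0.73 (adjusted p = 0.0746), and with the integrity index as a covariate, at -0.49 (adjusted p = 0.306). STAT6, the transcription factor that carries the IL4 and IL13 signal, averaged 10.26 ± 0.40 in infested Holstein-Friesian skin and 9.91 ± 0.27 in naive skin, and 10.12 ± 0.23 in infested Brahman skin and 10.04 ± 0.15 in naive skin. Its differences of 0.35 and 0.09 did not pass. CSF2RB, the chain shared by the receptors of IL3, IL5 and GM-CSF, read 8.92, 9.93 and 8.67 in infested Holstein-Friesian skin against 7.24, 8.02 and 7.24 in naive skin, with no overlap and an adjusted p of 0.0504. The median of the 10 differences was 0.42 in Holstein-Friesian and 0.07 in Brahman skin.

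The cytokines' own list, with the epithelial alarmins, had 7 of 11 genes measured. Only AREG, the growth factor amphiregulin, rose in Holstein-Friesian skin, at 8.01, 9.96 and 8.78 in infested animals against 7.24, 6.39 and 7.14 in naive animals. This 3.98-fold difference (adjusted p = 0.0381) was lost with a replicate block (adjusted p = 0.0524). It was also lost without any 1 of the 3 naive Holstein-Friesian arrays, infested Holstein-Friesian arrays 2 or 3, naive Brahman array 3 or infested Brahman array 2 (differences of 1.47 to 2.15, adjusted p of 0.0505 to 0.139). IL33, an alarmin of epithelium, averaged 7.19 ± 0.34 in infested Brahman skin and 8.09 ± 0.32 in naive skin, a difference of -0.90 that did not pass (adjusted p = 0.0649). In Holstein-Friesian skin it averaged 8.24 ± 0.60 in infested and 8.07 ± 0.38 in naive animals. IL9, IL25, TSLP and IL31 were not analysed here.

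CCL26 was higher in infested than in naive skin, a difference that passed in Holstein-Friesian animals and over both breeds. It read 10.97, 11.74 and 10.18 in infested Holstein-Friesian skin, against 8.50, 7.60 and 7.80 in naive skin. Every infested array was above every naive one. The group means were 10.96 ± 0.78 and 7.96 ± 0.47 (SD), a difference of 3.00 ± 0.59 or 7.99-fold (95% interval 1.70 to 4.30 log2, limma adjusted p = 0.0217).

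In Brahman skin CCL26 read 10.23, 10.65 and 9.34 in infested animals, against 7.18, 8.25 and 9.64 in naive animals. Naive array 3 lay above infested array 3, so the groups overlapped, and naive Brahman skin had the widest spread of the 4 groups. The means were 10.07 ± 0.67 in infested and 8.36 ± 1.24 in naive skin. The 3.28-fold difference of 1.71 ± 0.59 (95% interval 0.41 to 3.01) missed the threshold at an adjusted p of 0.0633, with an unadjusted p of 0.0144. Without naive array 3 it was 2.36 and passed (adjusted p = 0.0256), without infested array 3 it was 2.08 and passed (adjusted p = 0.0478), and without naive array 1 it was 1.13 (adjusted p = 0.203). With the integrity index as a covariate it was 1.56 (adjusted p = 0.324).

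Over both breeds CCL26 averaged 10.52 ± 0.81 in infested and 8.16 ± 0.86 in naive animals (SD, n = 6 each), a 5.12-fold difference of 2.36 ± 0.42 with a limma adjusted p of 0.00264. This call was kept under all 20 alternatives, the index covariate among them at 2.27 (adjusted p = 0.0230). The Holstein-Friesian call had less room. It was lost without naive array 1 (3.26, adjusted p = 0.0651), naive array 2 (2.81, adjusted p = 0.0808), naive array 3 (2.92, adjusted p = 0.0598) or infested array 2 (2.61, adjusted p = 0.0650). It was kept with the index as a covariate, at 2.97 (adjusted p = 0.0205).

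The means of CCL26 were ordered infested Holstein-Friesian, infested Brahman, naive Brahman and naive Holstein-Friesian, from high to low. The infested breeds did not differ beyond their spread, nor did the naive breeds. In the RefSeq gene table (assembly ARS-UCD2.0) CCL26 lies next to CCL24, which codes for eotaxin-2, and CCL24 was not analysed here. CCL11, the eotaxin of fibroblasts, stayed near the bottom of the signal range at 4.06 ± 0.07 in infested Holstein-Friesian skin against 3.98 ± 0.26 in naive skin, and at 4.18 ± 0.20 in infested Brahman skin against 4.11 ± 0.16 in naive skin. Of 16 listed eosinophil chemokines and receptors 8 were measured, and CCL26 was the only one that rose in Holstein-Friesian skin, while in Brahman skin 0 passed. Over both breeds CCL8 also rose, by 1.93 (adjusted p = 0.0181). The median difference of the 8 was 0.49 in Holstein-Friesian and 0.19 in Brahman skin.

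**Figure D3:**
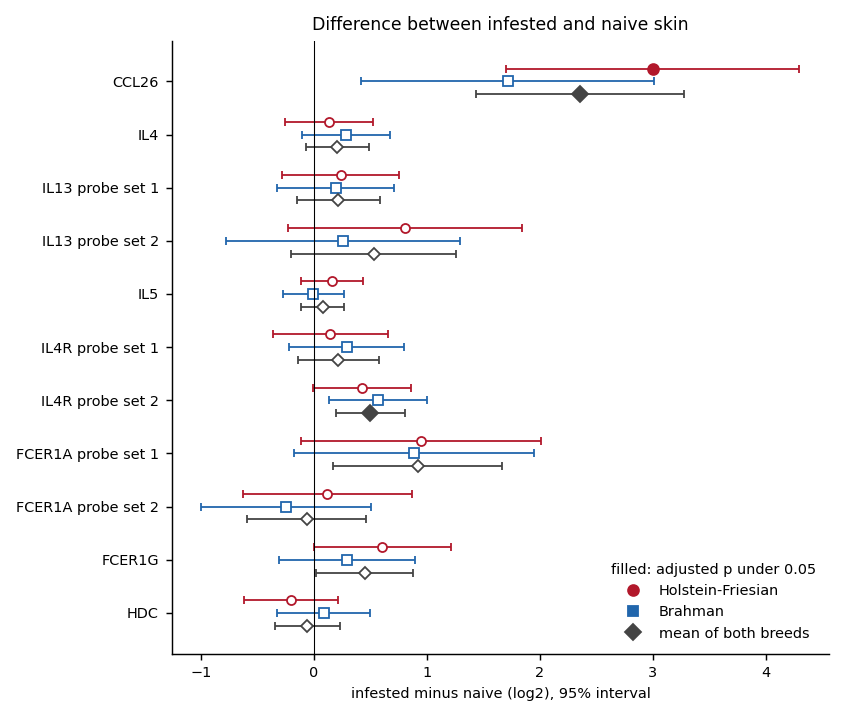
Difference between infested and naive skin (log2, x axis, infested minus naive) of the 11 probe sets in Holstein-Friesian skin (circles), Brahman skin (squares) and over both breeds (diamonds), with 95% intervals. Filled symbols passed at an adjusted p under 0.05: CCL26 in Holstein-Friesian skin at 3.00 and over both breeds at 2.36, and the second IL4R probe set over both breeds at 0.50.

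Markers of eosinophils themselves were thinly covered, with 5 of 14 measured. The granule genes EPX, PRG2 and PRG3 and the receptor gene IL5RA were not analysed here. ALOX5AP, the partner protein of the leukotriene-making 5-lipoxygenase, read 8.60, 8.58 and 7.90 in infested Holstein-Friesian skin against 7.23, 7.47 and 7.13 in naive skin, and 8.77, 8.04 and 7.52 in infested Brahman skin against 7.07, 7.35 and 7.74 in naive skin. Within a breed 0 of the 5 passed (ALOX5AP had adjusted p of 0.0678 and 0.123). Over both breeds ALOX5AP rose by 0.90 (adjusted p = 0.0116) and ALOX15 by 1.03 (adjusted p = 0.0444). With the index as a covariate both lost the call, ALOX5AP at 0.52 (adjusted p = 0.162) and ALOX15 at 0.63 (adjusted p = 0.350). The ALOX15 call was also lost in 10 of the 12 fits that each left out 1 array, all but those without infested Holstein-Friesian array 3 or infested Brahman array 3 (differences of 0.77 to 1.11, adjusted p of 0.0549 to 0.0954). The mean level of the eosinophil list, relative to naive skin, ran between 0.27 and 1.46 on the infested Holstein-Friesian arrays and between -0.13 and 0.09 on the naive ones. It ran between 0.00 and 0.83 on the infested Brahman arrays and between -0.04 and 0.06 on the naive ones. The level of 1.46 was on infested Holstein-Friesian array 2, where CCR3 and ALOX15, both in this list, were at their highest. The list level is thus not separate from the one-array pattern described above.

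FCER1A, the IgE-binding chain of mast cells, basophils and some dendritic cells, gave different readings from its 2 probe sets (r = 0.56 over 12 arrays). The first read 6.77, 6.92 and 6.80 in infested Holstein-Friesian skin, against 5.27, 6.71 and 5.66 in naive skin. All infested arrays lay above all naive ones, but naive array 2 was close to the lowest infested array. The difference of 0.95 ± 0.48 (1.93-fold) did not pass (adjusted p = 0.285).

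In Brahman skin the first FCER1A probe set read 7.29, 6.17 and 5.10 in infested animals, against 5.05, 5.62 and 5.24 in naive animals. The infested arrays spanned more than the range of all naive Brahman arrays, and their order was the reverse of that of the integrity index, with the highest signal on the array of index -4.91. The difference was 0.89 ± 0.48 (adjusted p = 0.217). Leaving out the 2 arrays of lowest index gave 0.34, fitting the index as a covariate gave 0.07, and the fit without infested array 3 passed (1.43, adjusted p = 0.0392).

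Over both breeds the first FCER1A probe set was 1.89-fold higher in infested skin, 6.51 ± 0.78 in infested and 5.59 ± 0.60 in naive animals (SD, n = 6 each), with an adjusted p of 0.0662 that missed the threshold. Fitting the index as a covariate gave 0.43 (adjusted p = 0.505) and leaving out the 2 arrays of lowest index gave 0.66 (adjusted p = 0.108). It passed with array weights (0.77, adjusted p = 0.0415), without naive Holstein-Friesian array 2 (1.13, adjusted p = 0.0366) or without infested Brahman array 3 (1.19, adjusted p = 0.0118). The second probe set lay close to its naive level, at 5.35, 6.08 and 6.23 in infested Holstein-Friesian skin against 5.44, 6.33 and 5.54 in naive skin, and 6.28, 5.47 and 5.11 in infested Brahman skin against 5.99, 5.99 and 5.61 in naive skin. Its difference over both breeds was -0.06 ± 0.24 (95% interval -0.59 to 0.46, adjusted p = 0.868). Both probe sets carry the same cluster number in the array design, and which part of the transcript each one reads was not analysed here.

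FCER1G, the signalling chain that the IgE receptor shares with the activating IgG receptors of macrophages, read 7.72, 8.14 and 7.39 in infested Holstein-Friesian skin, against 6.78, 7.68 and 6.98 in naive skin. In Brahman skin it read 7.43, 7.48 and 8.00 in infested animals, against 7.03, 7.49 and 7.52 in naive animals. Naive array 2 of either breed lay above at least 1 infested array, so the groups overlapped. The differences were 0.61 ± 0.27 in Holstein-Friesian skin (1.52-fold, unadjusted p = 0.0487, adjusted p = 0.228) and 0.29 ± 0.27 in Brahman skin (adjusted p = 0.484). Over both breeds the difference was 0.45 ± 0.19 (adjusted p = 0.107), and it passed without naive Holstein-Friesian array 2 (0.58, adjusted p = 0.0417).

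Of the wider Fc receptor pathway 19 of 21 listed genes were measured. In Holstein-Friesian skin 5 rose and 1 fell (5.02% of all probe sets passed), and in Brahman skin 4 rose and 1 fell (19.8% passed), with list medians of 0.62 and 0.31. With 1 array left out, the number that rose ran from 1 to 8 in Holstein-Friesian and from 2 to 5 in Brahman skin. FCGR1A, the high-affinity IgG receptor that pairs with FCER1G, read 8.00, 8.67 and 8.58 in infested Holstein-Friesian skin against 6.74, 7.29 and 6.55 in naive skin, a 2.93-fold difference (adjusted p = 0.00634). In Brahman skin it read 7.73, 7.55 and 7.69 in infested animals against 6.88, 6.75 and 6.66 in naive animals, a difference of 0.89 (adjusted p = 0.0169). The Brahman call was lost without naive array 2 (0.88, adjusted p = 0.0520) or naive array 3 (0.84, adjusted p = 0.0645).

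FCGR2B, the inhibitory IgG receptor, went the other way. It read 6.95, 6.60 and 6.48 in infested Holstein-Friesian skin against 8.75, 8.11 and 9.14 in naive skin, and 7.00, 6.40 and 5.61 in infested Brahman skin against 8.99, 8.17 and 8.85 in naive skin. The groups did not overlap in either breed, and the differences were -1.99 ± 0.36 (adjusted p = 0.0164) and -2.33 ± 0.36 (adjusted p = 0.00249). The Holstein-Friesian call was lost without naive array 1 (-1.95, adjusted p = 0.0734), naive array 3 (-1.75, adjusted p = 0.0510) or infested array 3 (-1.90, adjusted p = 0.0631).

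Of the kinases next to the receptor, LYN and FYN passed in both breeds, SYK in Brahman skin and BTK in Holstein-Friesian skin. LYN, which phosphorylates the receptor chains, read 7.94, 7.97 and 7.41 in infested Holstein-Friesian skin against 5.35, 6.32 and 5.97 in naive skin, and 8.72, 7.44 and 7.81 in infested Brahman skin against 5.86, 6.46 and 6.65 in naive skin. These differences of 1.89 and 1.66 passed (adjusted p of 0.0177 and 0.00974), and its 2 other probe sets, at 0.73 and 0.11 in Holstein-Friesian skin and -0.19 and 0.46 in Brahman skin, did not. FYN, a related kinase, rose by 1.12 in Holstein-Friesian (adjusted p = 0.0197) and 1.23 in Brahman skin (adjusted p = 0.00433). SYK, the kinase recruited to FCER1G, rose by 0.56 in Brahman skin (adjusted p = 0.0492), a call kept under 6 of 22 alternatives and lost without any 1 array other than infested Holstein-Friesian array 3 and naive Brahman array 1. In Holstein-Friesian skin BTK rose by 1.47 (adjusted p = 0.0143) and the adaptor LCP2 by 1.37 (adjusted p = 0.0367), the second with an adjusted p of 0.0585 in a replicate block. The LCP2 call was also lost without any 1 naive Holstein-Friesian array, naive Brahman arrays 1 or 2, or infested Holstein-Friesian arrays 2 or 3 (1.02 to 1.53, adjusted p of 0.0507 to 0.103).

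Of the Holstein-Friesian calls, those of LYN and BTK were lost without naive array 1 (1.62 and 1.44, adjusted p of 0.0790 and 0.0661), and that of LYN also without infested array 2 (1.79, adjusted p = 0.0533). The FYN call was lost without naive arrays 1 or 2 or infested arrays 2 or 3 (1.06 to 1.09, adjusted p of 0.0595 to 0.0830). With the index as a covariate the Brahman difference of LYN was 1.14 (adjusted p = 0.178) and that of FYN 1.50 (adjusted p = 0.0158).

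HDC, which commits histidine to histamine, was at the lowest mean signal of the 8 genes. It read 3.79, 3.70 and 3.67 in infested Holstein-Friesian skin against 3.73, 4.36 and 3.69 in naive skin, and 3.98, 3.78 and 3.66 in infested Brahman skin against 3.86, 3.80 and 3.50 in naive skin. The highest array was naive Holstein-Friesian 2 and the groups overlapped in both breeds. The differences were -0.20 ± 0.19 (95% interval -0.61 to 0.21, adjusted p = 0.577) and 0.09 ± 0.19 (-0.32 to 0.50, adjusted p = 0.773).

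Among 6 measured genes of histamine metabolism out of 10 listed, HNMT was the only one that passed within a breed. HNMT, the methyltransferase that inactivates histamine, read 7.84, 7.19 and 7.94 in infested Brahman skin against 5.95, 6.79 and 6.95 in naive skin, a 2.13-fold difference (adjusted p = 0.0341). In Holstein-Friesian skin it read 6.96, 7.00 and 7.21 in infested animals against 5.61, 6.62 and 6.33 in naive animals (0.87, adjusted p = 0.137). The Brahman call was lost without naive arrays 1 or 2 or infested arrays 1 or 3 (0.78 to 1.21, adjusted p of 0.0593 to 0.110), with the index as a covariate (1.16, adjusted p = 0.169) and without the 2 arrays of lowest index (1.00, adjusted p = 0.0682). Over both breeds, where 27.9% of all probe sets passed, 4 of the 6 rose: HNMT by 0.98 (adjusted p = 0.00881), the histamine receptor HRH1 by 0.69 (adjusted p = 0.0109), the vesicle transporter SLC18A2 by 1.06 (adjusted p = 0.0394) and the diamine oxidase AOC1 by 0.39 (adjusted p = 0.0446). With the index as a covariate HNMT alone of these 4 kept its call. The SLC18A2 call was lost in a replicate block (adjusted p = 0.0585) and without any 1 of 8 arrays, the 6 naive ones and infested Holstein-Friesian arrays 2 and 3, and the AOC1 call without any 1 of 10 arrays, all but naive Holstein-Friesian array 1 and infested Brahman array 2.

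Mast cell and basophil markers gave a mixed reading, with 12 of 22 measured and CPA3, CMA1 and MS4A2 not analysed here. In Holstein-Friesian skin 2 rose and 1 fell (5.02% of all probe sets passed), and the median difference was 0.39. In Brahman skin 2 rose and 0 fell, with the same median, a share no higher than the 19.8% of all probe sets that passed. With 1 array left out, the number that rose ran from 0 to 3 in Holstein-Friesian and from 1 to 4 in Brahman skin. KIT, the stem cell factor receptor of mast cells and also of melanocytes, read 9.86, 8.97 and 9.39 in infested Holstein-Friesian skin against 7.44, 7.81 and 7.66 in naive skin (3.41-fold, adjusted p = 0.0151). In Brahman skin it read 10.23, 9.21 and 9.08 in infested animals against 8.06, 8.67 and 8.32 in naive animals (2.23-fold, adjusted p = 0.0262). The 3 other KIT probe sets did not pass in either breed, with differences of 0.03, 0.35 and 0.85 in Holstein-Friesian and 0.08, 0.01 and 0.07 in Brahman skin.

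The KIT call was lost in Holstein-Friesian skin without naive array 1 (1.67, adjusted p = 0.0692) or infested array 3 (1.78, adjusted p = 0.0538). It was lost in Brahman skin without naive array 1 (1.01, adjusted p = 0.0839), naive array 3 (1.14, adjusted p = 0.0795) or infested array 1 (0.80, adjusted p = 0.0510), and at 0.31 with the index as a covariate (adjusted p = 0.571). SRGN, the proteoglycan core of mast cell granules that other leukocytes also make, read 10.59, 12.46 and 11.39 in infested Holstein-Friesian skin against 8.70, 9.59 and 8.75 in naive skin (5.54-fold, adjusted p = 0.0213). Without naive arrays 1 or 3 or infested arrays 2 or 3 the SRGN difference was 1.98 to 2.52 and did not pass (adjusted p of 0.0536 to 0.0907).

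CD63, a granule membrane protein found in many cells, rose by 0.55 in Brahman skin (adjusted p = 0.00799, and 0.0778 with the index as a covariate). ENPP3, a surface enzyme of activated basophils and of some epithelia, fell by 1.74 on the log2 scale in Holstein-Friesian skin (adjusted p = 0.0419), a call lost with a replicate block (adjusted p = 0.0649) and without any 1 of the 9 arrays that are not infested Brahman (-1.89 to -1.64, adjusted p of 0.0569 to 0.138). Only naive Holstein-Friesian skin was high in ENPP3, at 7.69 against 5.94 in infested skin. In Brahman skin ENPP3 averaged 5.60 in infested and 5.48 in naive animals. TPSB2, a tryptase of mast cell granules, averaged 7.56 ± 0.52 in infested Holstein-Friesian skin against 7.80 ± 0.95 in naive skin, and 6.95 ± 0.60 in infested Brahman skin against 7.57 ± 0.38 in naive skin. Its differences of -0.24 and -0.62 did not pass.

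Genes known to be induced by IL4 and IL13 in other cells, often in human or mouse, had 15 of 22 measured. Their median difference was 0.16 in Holstein-Friesian and -0.06 in Brahman skin. In Holstein-Friesian skin 3 rose, namely CCL26, the macrophage lectin CD209 by 2.64 (adjusted p = 0.0196) and the clotting factor subunit F13A1 by 2.44 (adjusted p = 0.00693). In Brahman skin F13A1 rose by 2.31 (adjusted p = 0.00231). SPDEF, a transcription factor of secretory epithelium, fell in both breeds, by 1.71 (adjusted p = 0.0161) in Holstein-Friesian and by 2.06 (adjusted p = 0.00216) in Brahman skin. The CD209 call was lost without naive arrays 1 or 3 or infested array 3 (2.41 to 2.71, adjusted p of 0.0605 to 0.0866). The SPDEF call in Holstein-Friesian skin was lost without naive array 1 (-1.54, adjusted p = 0.0754) or infested array 3 (-1.56, adjusted p = 0.0631).

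CD209 and F13A1 are also macrophage genes, and the marker list of macrophages and dendritic cells moved alongside. CD209 and FCGR1A are themselves in this list and among its genes that rose in Holstein-Friesian skin, so the list is not separate from them. The macrophage list had 12 of 20 genes measured, of which 7 rose in Holstein-Friesian skin (5.02% of all probe sets passed), 5 rose in Brahman skin (19.8% passed) and 0 fell in either. With 1 array left out, the number that rose ran from 3 to 11 in Holstein-Friesian and from 2 to 6 in Brahman skin. The median difference was 1.81 in Holstein-Friesian and 1.06 in Brahman skin. The list level ran between 1.48 and 1.74 on the infested Holstein-Friesian arrays and between -0.47 and 0.51 on the naive ones, and between 0.98 and 1.31 on the infested Brahman arrays and between -0.21 and 0.26 on the naive ones. The part of macrophages and dendritic cells in the differences of CCL26, FCER1G, FCGR1A, LYN and SRGN was not tested.

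Among the other marker lists, of 9 neutrophil genes MMP9 alone passed in Holstein-Friesian skin and ELANE alone in Brahman skin, both upwards. The list median was -0.03 in Holstein-Friesian and -0.65 in Brahman skin with 4 of the 9 above 0 in each, and over both breeds LTF fell by 1.40 on the log2 scale (adjusted p = 0.0395), a call kept under 11 of 20 alternatives. The MMP9 call was lost without any 1 Holstein-Friesian array (1.01 to 1.24, adjusted p of 0.0620 to 0.123). ELANE was at low signal, with means of 4.68 in infested and 4.01 in naive Brahman skin. Its call was kept under 17 of 21 alternatives. It was lost without naive Brahman array 3 (0.59, adjusted p = 0.0648) and with the index as a covariate (0.49, adjusted p = 0.212). Of 17 T cell and NK cell genes 0 passed in Holstein-Friesian skin and CD8A and LCK rose in Brahman skin, with medians of 0.36 and 0.06. The CD8A call was kept under 8 of 21 alternatives. With the index as a covariate both calls were lost, CD8A at 0.68 (adjusted p = 0.444) and LCK at 0.48 (adjusted p = 0.2495). Of 11 skin genes 0 passed in Holstein-Friesian skin, and the 4 that rose in Brahman skin were COL1A1, COL1A2, COL3A1 and DCN, all genes of dermal matrix. The median of the 11 in Brahman skin was -0.01 with 5 above 0, and none of the 5 keratin and desmosome genes passed.

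**Figure D4:**
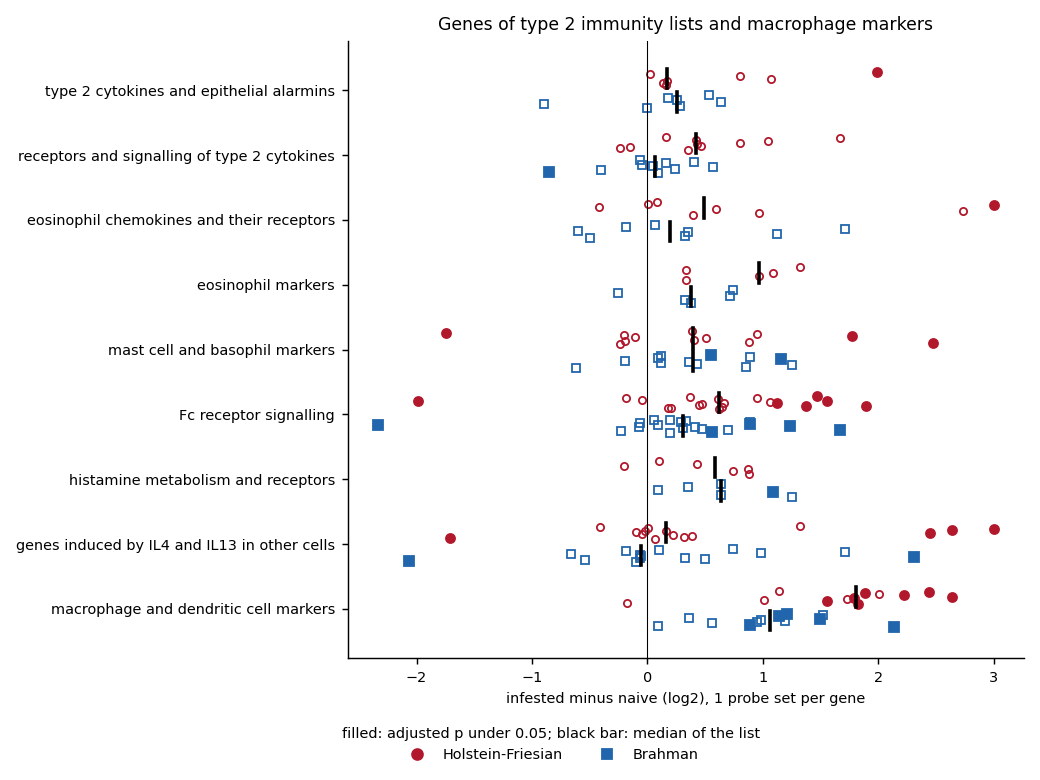
Difference between infested and naive skin (log2, x axis, infested minus naive) of each measured gene of 8 lists of type 2 immunity and of the macrophage list, in Holstein-Friesian (circles) and Brahman skin (squares). Filled symbols passed at an adjusted p under 0.05 and black bars are list medians, which reach 1.81 and 1.06 for macrophage markers and lie at 0.17 and 0.25 for the cytokines.

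The list calls were refitted with the integrity index and with arrays left out. Of 19 called list genes other than the 8 genes themselves, 19 passed in Holstein-Friesian skin with the index as a covariate. In Brahman skin 10 of 22 passed with it. There the index did not overlap between infested and naive arrays, so a lost call does not tell integrity from infestation. With each array left out in turn, 4 of the 19 Holstein-Friesian genes (CD14, F13A1, FCGR1A and MSR1) and 12 of the 22 Brahman genes passed in every fit. Without the 2 arrays of lowest index the counts of risen genes in Holstein-Friesian and Brahman skin were 7 and 3 for Fc receptor signalling, 10 and 6 for the macrophage list and 3 and 1 for the receptors and signalling partners of type 2 cytokines. In Brahman skin the same setting gave 0 for histamine metabolism in place of 1, 1 for T cell and NK cell genes in place of 2, and 3 fallen neutrophil genes in place of 0.

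No probe set of the 8 genes passed in a comparison of the breeds. In the difference of the infestation effect between Brahman and Holstein-Friesian skin 0 of the 11 probe sets passed, with 0 at an unadjusted p under 0.05, and 0.00416% of all probe sets passed. For CCL26 this difference was -1.28 ± 0.84 (95% interval -3.12 to 0.55, adjusted p = 0.697), so that the smaller effect in Brahman skin was not shown to differ from that in Holstein-Friesian skin. The intervals of the other 10 probe sets also held 0.

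Between infested Brahman and infested Holstein-Friesian skin, which were of the same age, 0 of the 11 passed, against 0.167% of all probe sets. Of the 11, 0 had an unadjusted p under 0.05. These groups differed in RNA integrity, with an index of -4.91, -2.56 and -2.07 in Brahman against -2.73, -0.75 and -1.23 in Holstein-Friesian skin. None of the 11 passed under any alternative, but the share of all probe sets that passed depended on the 2 arrays of lowest index, as given at the end. CCL26 was at 10.07 ± 0.67 in infested Brahman and 10.96 ± 0.78 in infested Holstein-Friesian skin (-0.89 ± 0.59, 95% interval -2.19 to 0.41, adjusted p = 0.525). The arrays of these groups did not overlap for 1 of the 11, IL5, which was 0.13 lower in Brahman skin (adjusted p = 0.661), where 13.4% of all probe sets did not overlap. Naive Brahman animals were 18 months old and naive Holstein-Friesian animals 12, so breed and age cannot be told apart between them. In this comparison 0 of the 11 passed, against 0.025% of all probe sets, and 0 had an unadjusted p under 0.05. The arrays did not overlap for 0 of the 11, against 14.5% of all probe sets. The first FCER1A probe set had the widest gap there, at 5.30 ± 0.29 in naive Brahman and 5.88 ± 0.74 in naive Holstein-Friesian skin (-0.58, 95% interval -1.64 to 0.48, adjusted p = 1.0).

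The 3 cytokine genes lie close together in the genome. In the RefSeq gene table IL4 and IL13 are direct neighbours and IL5 follows after RAD50, yet over the 12 arrays IL4 correlated at r = 0.00 and 0.10 with the IL13 probe sets and at 0.35 with IL5. Among probe sets of different genes, the closest pair was CCL26 and the second IL4R probe set, at r = 0.84. These correlations describe 12 arrays that share 4 groups, and low signal bears on those of IL4, IL13, IL5 and HDC.

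The genes most like each of the 8 over the 12 arrays, by Pearson correlation and with no test, differed from gene to gene. Each of the 8 was read only at its probe set of highest mean, the second of IL4R and IL13 and the first of FCER1A. For CCL26 they were PDZK1IP1 (0.94), RAC1 (0.92) and MXRA8 (0.91), and for IL4R they were CTSB (0.92), SLC43A2 (0.92) and PLEKHO2 (0.91). PDZK1IP1, a membrane-associated protein of epithelium, read 8.42, 8.58 and 8.44 in infested Holstein-Friesian skin against 6.75, 6.80 and 6.95 in naive skin. It read 7.64, 8.19 and 7.77 in infested Brahman skin against 6.49, 7.34 and 7.65 in naive skin, where, as for CCL26, naive array 3 was the highest of the naive Brahman arrays.

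For IL13 the most like genes were CCR3 (0.97), IL1B (0.95) and NR4A2 (0.94), with rank correlations of 0.75, 0.77 and 0.62, and infested Holstein-Friesian array 2 was the highest array for each of them. For FCER1G they were the MHC class II gene BOLA-DMB (0.95), the leukocyte GTPase regulator ARHGDIB (0.91) and the complement gene C1S (0.88). Those of FCER1A were TM4SF5, TMEM9B and SIKE1 (0.88 each). IL4 was most like PRSS12 (0.91), IFNGR2 (0.90) and NCK1 (0.87), IL5 most like EIF4E (0.87), GNAI1 (0.87) and PPIC (0.84), and HDC most like KNTC1 (0.92), the keratin KRT14 (0.90) and ACAP1 (0.87).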

How the data were processed

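The authors deposited 1 table of log2 values, computed by RMA, the robust multi-array average, as the submitters' processing notes say. The program behind RMA, its release and its probe mapping are not stated in the labels, and the values themselves show the log2 scale. RMA corrects background, quantile-normalises the arrays and summarises the probes of a set. No detection calls were used, so how far a signal stood above background is unknown, and precision is limited by the number of arrays. Of 24128 probe sets, 112 controls were left out, and the other 24016 were all tested.

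Gene symbols came from the platform annotation. One linear model of 4 group means over the 12 arrays was fitted in limma 3.58.1 under R 4.3.3 (lmFit and eBayes, two-sided, 8 residual and 3.03 prior degrees of freedom). P-values were adjusted by Benjamini-Hochberg over all probe sets of a comparison, with a threshold of 0.05. The standard error is pooled over the groups, and the intervals are 95% intervals of the same moderated statistic. The contrast over both breeds is the mean of the 2 breed effects and was added after seeing the data. Simulated data with known changes were used to test the procedure.

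The members and the 12 gene lists were chosen with earlier results of these data known. A list gene was read at its probe set of highest mean. Named list genes are those past the threshold within a breed, at most 4 per list and comparison by adjusted p, and the 3 genes most like each member by Pearson correlation. List genes named for the contrast over both breeds, those named without passing a test, those of the one-array pattern, and all further exceptions were chosen after their values were seen. A list level averages, over its genes, how far an array lay above the mean of the 6 naive arrays. The integrity index is the mean 5' minus 3' log2 signal of 5 control transcripts on the array.

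Replicate numbers come from the sample titles. Same-numbered infested and naive Holstein-Friesian arrays deviated together (r = 0.11 to 0.25), although no label explains it. Those of Brahman did not (r = -0.19 to -0.05). Same-numbered naive arrays of different breeds, which cannot be the same animal, correlated at r = 0.33, 0.02 and 0.20, so these values do not establish pairing. The main model was therefore unpaired, and a replicate block was fitted only as an alternative. No 2 arrays had more than 0.104% of values in common. The alternatives were cyclic loess, median centring, a low-signal filter at the 40% quantile of mean signal, a trended robust prior, the 6 arrays of a comparison alone, array weights, a replicate block, the index as a covariate, leaving out the 2 arrays of lowest index, and leaving out each array. Promoter and protein sequences were not analysed here.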

Additional observations from a re-analysis of the deposited data

How the results depend on the processing

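Of 66 differences of the 11 probe sets over the 6 comparisons, 3 passed and none of these changed sign under any alternative. Among the 63 others, 29 changed sign under at least 1 alternative and 6 passed under at least 1. Depth has no counterpart on arrays. Low signal limits what can be read from the 7 probe sets below the filter level, those of IL4, IL5, HDC, IL13 and FCER1A. The called list genes STAT5B, CD8A, ELANE, ALOX15 and AOC1 were also read below that level. The causes of the changes below were not tested.

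Over fits that each left out 1 array, the CCL26 difference ran from 2.61 to 3.39 in Holstein-Friesian skin, from 1.13 to 2.36 in Brahman skin and from 2.06 to 2.68 over both breeds. The Brahman difference passed with the low-signal filter (1.71, adjusted p = 0.0486), with median centring (1.81, adjusted p = 0.0487) and with array weights (1.87, adjusted p = 0.0244). The number of the 11 probe sets that passed in Brahman skin was 1 with the low-signal filter (CCL26), with cyclic loess and with the 2 arrays of lowest index left out (the second IL4R probe set), and 2 with median centring or array weights (both). With 1 array left out it ran from 0 to 2 in Brahman skin, from 0 to 1 in Holstein-Friesian skin and from 1 to 3 over both breeds. Over both breeds it was 1 with the integrity index as a covariate.

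With the replicate block the CCL26 difference stayed at 3.00 in Holstein-Friesian skin (adjusted p = 0.0391) and 1.71 in Brahman skin (adjusted p = 0.0909). The block changed no call among the 11 probe sets. Over all probe sets, 1206 passed in Holstein-Friesian skin, 2022 with the index as a covariate and 4076 without the 2 arrays of lowest index. In Brahman skin 4753 passed, and 1808 with the covariate. Between the infested breeds 40 passed, and 2200 without the 2 arrays. In the difference of the infestation effect 1 passed, and 1131 without them.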
